A study of Mus musculus with 26 samples.

Results

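Id1, Id2, Id3, Id4, Hes1, Hes5, Hes6, Hey1, Notch1 and Dll1 are genes of the Id, Hes and Hey families and of the Notch pathway, which act on the timing of differentiation, and their labelled RNA was followed as it decayed in oligodendrocyte progenitor cells (OPCs) and in oligodendrocytes (OLs). The genes were chosen by symbol, and all 10 were found among the 10104 transcripts listed for either cell type. Id3, Hes5, Hes6, Hey1, Notch1 and Dll1 (6 genes) were among the 8177 transcripts listed for both cell types. Id1, Id2, Id4 and Hes1 (4 genes) were listed for OLs alone, so no OPC value is given for them and they enter no comparison between cell types.

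Cells were labelled for 24 h with 5-ethynyluridine, a uridine analogue that can be coupled to biotin, and the label was then chased with uridine. Labelled RNA was pulled down and sequenced at 0, 1, 2, 4 and 6 h of chase. The OPCs (3 replicate cultures, 15 libraries) were mouse cells of strain 129S/SvEv, derived from epiblast stem cells and grown in bFGF and PDGFA. The OLs (2 replicate cultures, 10 libraries) came from such OPCs in medium with noggin, IGF-1, cyclic AMP, NT3 and the thyroid hormone T3. Per the study's methods the OL cultures correspond to 2 of the 3 OPC cultures, without saying to which, so the cell types are not independent samples. The labels name no engineered allele, both cell types received the same analogue, and nothing ties a culture to an animal, so p-values between cell types measure the spread between cultures only, and those of a slope within a cell type the scatter of its libraries around the fitted line. With 1 OL culture left out, the remaining culture is assumed to vary as the OPC cultures do. An OPC control without biotin (1 library) was not analysed here, so RNA that sticks to the beads unlabelled was not subtracted. Levels are FPKM, a read count corrected for transcript length and for the reads mapped in that library, and the authors scaled them to labelled spike-in RNA. The study's methods describe this scaling for every time of the chase. The 0 h columns hold more decimals than the later ones and were read here as not rescaled, so a 0 h level is taken as relative to its library. If they were rescaled too, a 0 h level is relative to the spike-in RNA. In bulk cultures, fewer cells of a type and less RNA per cell cannot be told apart.

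Id proteins are helix-loop-helix proteins that lack a DNA-binding region. They pair with the E proteins Tcf3, Tcf4 and Tcf12 and with Olig factors and keep these from binding DNA. Bone morphogenetic protein (BMP) signals, through Smad proteins, are a classical inducer of Id genes, and noggin blocks BMP. Hes and Hey proteins are repressors that recruit Groucho (Tle) co-repressors, and most of them are targets of Notch. Dll1 is a Notch ligand on the neighbouring cell and Notch1 is the receptor, whose cleaved inner part acts with Rbpj in the nucleus. Hes6 differs from its relatives, since it binds Hes1 and relieves its repression. Transcripts of this kind are known for short lives, which lets their levels follow a signal closely.

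The OL cultures carried the myelin transcripts their label calls for, but the cultures differed from each other. Over the 3 OL markers listed for both cell types (Mbp, Cnp and Ugt8a), the summed level at 0 h was 39.2 to 57.5 FPKM in OPCs and 4864 and 2190 FPKM in OL replicates 1 and 2. All 11 listed OL markers were lower in OL replicate 2 than in OL replicate 1, by 1.35 to 3.07 times, as were all 6 listed proliferation markers. The 7 OPC markers listed for both did not sum higher in OPCs, since they summed to 237 to 349 FPKM in OPCs and to 610 and 600.0 FPKM in OLs. Gpr17, a receptor of committed precursors, was at 5.00 to 6.61 FPKM in OPCs and at 323 and 299 FPKM in OLs. Of the defining OPC markers, Cspg4 was higher in OPCs (35.7 to 55.7 FPKM) than in OLs (30.7 and 29.9 FPKM) and Pdgfra was lower (11.5 to 26.5 FPKM, against 66.9 and 43.9 FPKM). Cacng4, C1ql1 and Lhfpl3 were also higher in both OL cultures than in any OPC culture, and Ptprz1 in OLs lay inside the OPC range. Calls that were lost without an OL culture are given as such beside the results.

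The listed transcripts are annotated on GRCm38, the build of the deposited files, and their 3′ untranslated regions were searched for the AU-rich pentamer ATTTA and its extended form TATTTAT, short elements bound by decay factors. The coordinates are those of GENCODE M21, a later release on that build than the one the authors used. Id3 lies at chr4:136143497-136145392 on the forward strand, Hes5 at chr4:154960923-154962371 on the forward strand, and Hes6 at chr1:91411483-91413222, Hey1 at chr3:8663359-8667256, Notch1 at chr2:26457903-26503822 and Dll1 at chr17:15367354-15375976 on the reverse strand. Id1 lies at chr2:152736251-152737410, Id4 at chr13:48261228-48266026 and Hes1 at chr16:30065340-30067796 on the forward strand, and Id2 at chr12:25093801-25096092 on the reverse strand. No ATTTA was found in the 3′ untranslated regions of Id1, Id3, Hes1, Hes5 and Hes6, which were 368 to 696 bases long. Notch1 held 4 (the share of the 9981 transcripts with such a region that held at least as many was 29.4%), Id2 and Dll1 held 3 each (37.9%), Hey1 held 1 (69.9%) and Id4 held 9 in a region of 3093 bases (8.29%). TATTTAT, each copy of which also counts as an ATTTA, occurred 4 times in Notch1, 2 times in Id2 and 1 time in each of Id4 and Dll1, and at least 1 time in 30.0% of those transcripts. The window of 25 bases around the earliest TATTTAT, or for Hey1 around its only ATTTA, is shown for these 5 transcripts, since they are the members in which the element was found, with the searched letters in capitals (in Notch1 a pair of overlapping copies), read 5′ to 3′ on the strand of the gene.
Notch1 (chr2:26459362-26459386, reverse): tttttttagTATTTATTTATgtact
Dll1 (chr17:15367443-15367467, reverse): atataaatgTATTTATggaatattg
Hey1 (chr3:8664197-8664221, reverse): tctgtgcctcATTTAttttgtaaac
Id2 (chr12:25094357-25094381, reverse): tgataccgtTATTTATgagagactt
Id4 (chr13:48264832-48264856, forward): aaagtcaaaTATTTATggggatctg
These letters were searched in the annotated strand only, and a match is a description of the sequence. Exons of Notch1, Dll1, Hes5 and Id4 share up to 1068, 624, 433 and 171 bases with a gene annotated on the opposite strand, and the sources used here do not state whether reads were counted by strand, so reads from such a partner cannot be told apart from theirs.

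At 0 h, Hes6 was lower and Hey1 was higher in OLs than in OPCs, and the other 4 genes did not pass the test. With limma on log2(FPKM + 1), 2 of 6 genes passed at an adjusted p under 0.05, beside 29.6% of all 8177 transcripts, of which 13.8% were higher and 15.8% lower in OLs. The labelled RNA of Hes6, the antagonist of Hes1, was at 91.1, 66.5 and 74.9 FPKM in OPC replicates 1, 2 and 3 and at 29.3 and 34.5 FPKM in OL replicates 1 and 2. Both OL cultures lay below all OPC cultures, and the share of all transcripts separated by cell type at 0 h was not counted. The level fell 2.37-fold on the log2(FPKM + 1) scale, which understates changes of low transcripts (log2 difference -1.25 ± 0.23 SE, limma adjusted p = 0.00658).

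Hey1, a Notch target that represses transcription, was at 32.5, 16.0 and 29.0 FPKM in the OPC replicates and at 54.0 and 85.3 FPKM in the OL replicates. Both OL values lay above all OPC values, the other direction from Hes6. The level rose 2.67-fold (log2 difference 1.42 ± 0.35 SE, limma adjusted p = 0.0187). Without OL replicate 1 the adjusted p was 0.0651 for Hes6 and 0.0549 for Hey1, and without OL replicate 2 it was 0.143 for Hey1.

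**Figure D1:**
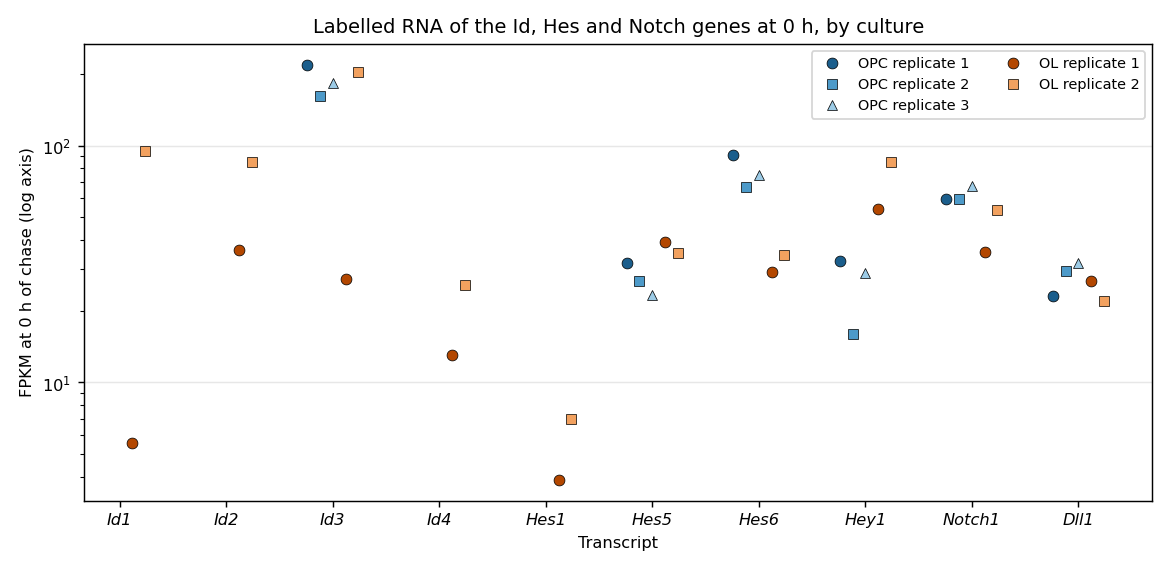
FPKM at 0 h of chase on a log axis for each gene, with 1 point per culture (blue, 3 OPC replicates; orange, 2 OL replicates). Hes6 sat lower in both OL cultures (29.3 and 34.5 FPKM) than in all OPC cultures, Hey1 sat higher (54.0 and 85.3 FPKM), and the OL cultures lay far apart for Id1 (5.57 and 95.2 FPKM) and Id3 (27.5 and 204 FPKM).

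Id3 was the most abundant of the 6 genes in OPCs, at 219, 162 and 183 FPKM, at the 95.9th to 96.2nd percentile of listed transcripts. In OLs it was at 27.5 FPKM in replicate 1 and at 204 FPKM in replicate 2, so that a single OL culture lay below the OPC range and the other lay inside it. The log2 difference was -1.30 ± 0.69 SE (limma adjusted p = 0.185). It was -2.72 without OL replicate 2 (adjusted p = 0.00541) and 0.13 without OL replicate 1 (adjusted p = 0.801), so the OL culture that was kept decided the value. With the replicate number as a block, which pairs OPC and OL cultures 1 and 2 by number alone, the adjusted p was 0.0461.

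Notch1, the receptor, was at 59.3, 59.7 and 67.7 FPKM in OPCs and at 35.4 and 53.5 FPKM in OLs, with both OL values below the OPC values (log2 difference -0.50 ± 0.25 SE, limma adjusted p = 0.155). Its ligand Dll1 was at 23.2, 29.5 and 31.9 FPKM in OPCs and at 26.7 and 22.1 FPKM in OLs, and the groups overlapped (-0.19 ± 0.23 SE, adjusted p = 0.559). Hes5, a repressor induced by Notch, was at 32.1, 26.9 and 23.5 FPKM in OPCs and at 39.0 and 35.3 FPKM in OLs, with both OL values above the OPC values (0.43 ± 0.23 SE, limma adjusted p = 0.182). None of these 3 differences passed the test.

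In order of mean level, OPCs held Id3 (188 ± 28.7 FPKM, SD, n = 3), Hes6 (77.5 ± 12.5), Notch1 (62.2 ± 4.77), Dll1 (28.2 ± 4.51), Hes5 (27.5 ± 4.33) and Hey1 (25.8 ± 8.67). The ranges of Hes6 and Notch1 overlapped, and so did those of Dll1, Hes5 and Hey1. In OLs the order was Id3 (116 ± 125, SD, n = 2), Hey1 (69.7 ± 22.1), Id2 (60.9 ± 34.8), Id1 (50.4 ± 63.4), Notch1 (44.5 ± 12.8), Hes5 (37.2 ± 2.62), Hes6 (31.9 ± 3.71), Dll1 (24.4 ± 3.24), Id4 (19.5 ± 9.01) and Hes1 (5.44 ± 2.20). There, only the neighbours Hes5 and Hes6, Hes6 and Dll1, and Id4 and Hes1 had ranges that did not overlap.

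The OL cultures differed most in the Id genes. At 0 h, 8 of 10 genes were higher in OL replicate 2 than in OL replicate 1, beside 57.0% of all 9751 transcripts, and at 1 h all 10 were, beside 92.5%. Id1 was at 5.57 FPKM in OL replicate 1 and at 95.2 FPKM in OL replicate 2, which is 17.1 times as much. Id3 was 7.44 times as high in replicate 2, Id2 2.36 times (36.3 and 85.5 FPKM) and Id4 1.97 times (13.1 and 25.8 FPKM). On the log2(FPKM + 1) scale these differences lay at or above the 95.8th percentile of all 9751 OL transcripts, with Id3 at 99.9 and Id1 at 100.0. Hes5 (ratio 0.905), Dll1 (0.828) and Hes6 (1.18) were near the same level in both cultures, and Hes1 (3.88 and 6.99 FPKM), Hey1 and Notch1 were 1.80, 1.58 and 1.51 times as high in replicate 2.

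The lists of other cell types moved between the OL cultures as well. Of 9 listed astrocyte markers, 8 were higher in OL replicate 2, among them the gap junction gene Gja1 (40.1 and 188 FPKM, 4.68 times), and S100b was lower. The 7 listed for both cell types summed to 528 to 641 FPKM in OPCs and to 767 and 956 FPKM in OL replicates 1 and 2. Within these sums S100b was at 9.07 to 10.5 FPKM in OPCs and at 290 and 160 FPKM in OLs. In OL replicate 1, Slc1a2 and Sox9 were also above all OPC cultures, Gja1 was inside the OPC range, and Slc1a3, Aldoc and Fgfr3 were below it. The defining astrocyte markers were low or not listed, with Gfap at 6.86 and 8.12 FPKM, Aldh1l1 at 1.72 and 2.44 FPKM, and Aqp4 not listed. Neural stem cell markers summed to 1137 and 1377 FPKM in the OL cultures and to 1611 to 2050 FPKM in OPCs over the 5 listed for both. The 3 neuron markers listed for both summed to 212 and 198 FPKM in the OL cultures and to 83.3 to 189 FPKM in OPCs, with Rbfox3, Snap25, Stmn2 and Nefl not listed. The 6 proliferation markers listed for both summed to 167 and 78.8 FPKM in the OL cultures and to 453 to 554 FPKM in OPCs. Their part in the Id levels was not tested.

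**Figure D2:**
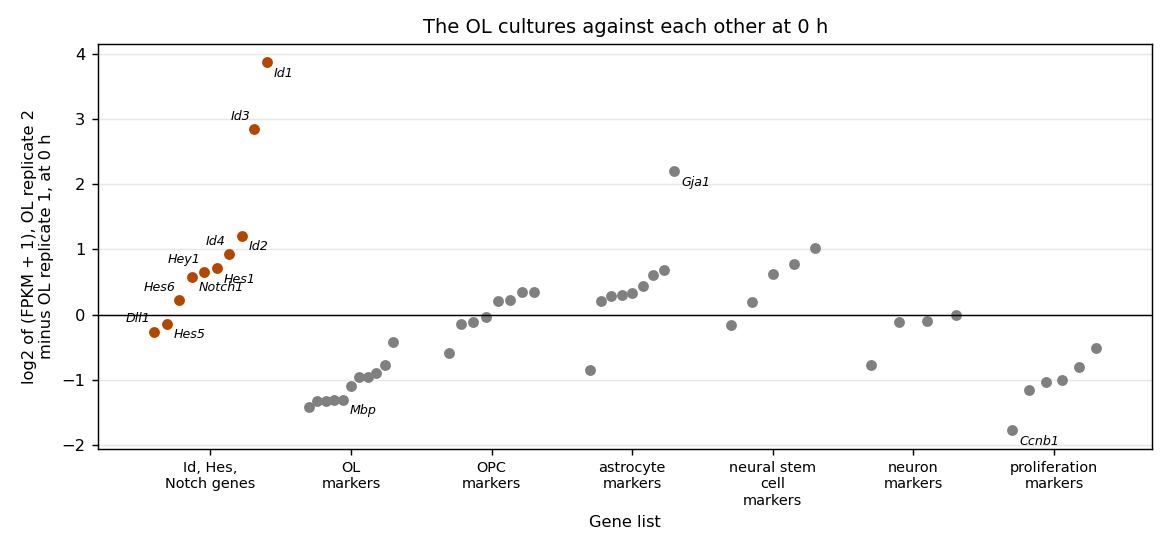
Difference between the OL cultures at 0 h, log2(FPKM + 1) of OL replicate 2 minus OL replicate 1, with 1 point per listed gene of the Id, Hes and Notch genes (orange) and of the marker lists (grey). Id1 (3.87) and Id3 (2.85) stood highest, all 11 OL markers and all 6 proliferation markers lay below 0, and Gja1 (2.20) was the highest marker.

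All 6 genes fell during the chase in OPCs and all 10 fell in OLs. A limma fit of log2(FPKM + 1) on hours of chase, with each culture at its own level, called a fall in 6 of 6 genes in OPCs, beside 81.7% of all 8530 transcripts, and in 10 of 10 in OLs, beside 68.4% of all 9751. Without OL replicate 2, 6 of 10 passed in OLs (Id1, Id3, Notch1 and Dll1 had adjusted p of 0.648, 0.0637, 0.12 and 0.223), beside 52.0% of all transcripts called in either direction. When cultures shared a level, 8 of 10 passed (Id1 0.10 and Id3 0.0831), beside 65.5% of all transcripts in either direction. Scaling each library to the median of its own 0 h library removes the fall that all transcripts share, and turned the calls over all transcripts from 368 rising and 6966 falling to 2904 and 2166 in OPCs and from 146 and 6668 to 2963 and 1962 in OLs. On that scale 0 of 6 genes were called in OPCs and 2 of 10 in OLs, Hes5 and Id4, so the falls of the other genes were not separated from the fall of the median transcript.

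Id3 lost most of its label early in OPCs. It kept 11.9%, 40.2% and 26.1% of its 0 h level after 1 h in OPC replicates 1, 2 and 3, and 3.36%, 4.49% and 9.07% after 2 h. In OL replicates 1 and 2 it kept 37.4% and 81.9% after 1 h, and 32.6% and 39.1% after 2 h. At 2 h, both OL cultures thus held more of their label than each OPC culture. The median FPKM of all transcripts stood at 45.2%, 74.6% and 65.8% of 0 h in the OPC cultures and at 67.8% and 57.2% in the OL cultures at 2 h, so Id3 was below the median in all 5.

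Hes5 followed Id3 closely in OPCs, where it kept 20.4%, 37.2% and 36.2% after 1 h and 6.44%, 11.1% and 4.33% after 2 h. In OLs it kept 49.9% and 98.8% after 1 h and 38.7% and 40.3% after 2 h. Dll1 was at 13.3%, 8.25% and 4.31% after 2 h in OPCs and at 29.2% and 33.9% in OLs.

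Notch1 fell later in OPCs than these, with 21.5%, 43.7% and 57.7% left after 2 h and 8.54%, 5.07% and 8.76% after 4 h. In OLs 70.6% and 81% was left after 2 h and 58.3% and 53.9% after 4 h. Hey1 was at 18.2%, 34.4% and 24.3% after 2 h in OPCs and at 77.5% and 68.9% in OLs. Hes6 fell most slowly of the 6 in OPCs, with 42.6%, 61.4% and 64.4% left after 2 h, close to the medians of those libraries, and 68.5% and 87.1% in OLs. At 2 h, all 6 genes kept more in both OL cultures than in each OPC culture, beside 13.6% of all transcripts. At 1 h this held for 1 of 6 (Hes5), beside 2.71%, and at 4 h for 5 of 6 (all but Hes6), beside 48.7%.

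**Figure D3:**
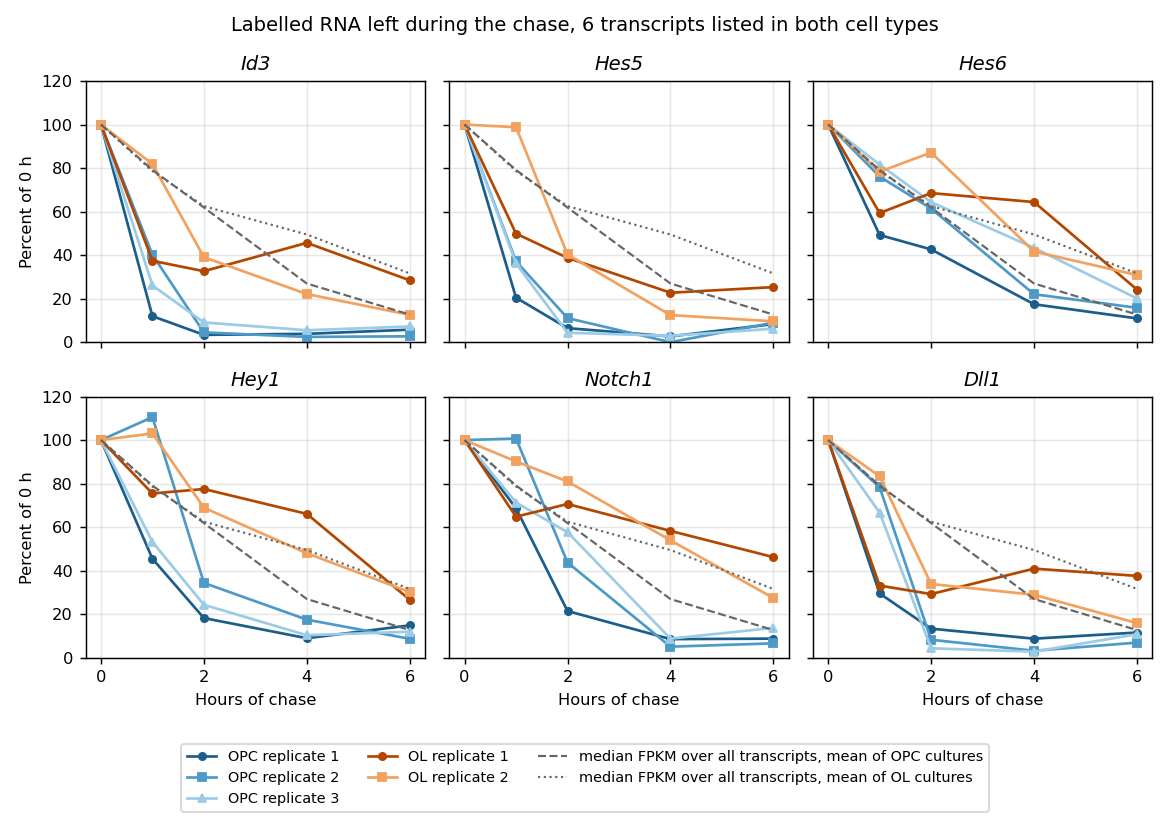
Percent of the 0 h level left (y axis) against hours of chase (x axis) for the 6 genes listed for both cell types, with 1 line per culture (blue, OPC; orange, OL) and the median FPKM over all transcripts as broken grey lines. Id3, Hes5 and Dll1 were at or below 13.3% in all OPC cultures at 2 h, while Hes6 ran near the median line.

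At 6 h, all 6 genes kept more of their 0 h level in both OL cultures than in any OPC culture, a pattern found for 48.9% of all transcripts. Notch1 was at 8.76%, 6.6% and 13.7% in the OPC replicates and at 46.2% and 27.4% in the OL replicates, and the mean difference was 27.1 percentage points. Id3 was at 5.74%, 2.69% and 7.21% in OPCs and at 28.4% and 12.5% in OLs, a mean difference of 15.3 points. For the other 4 genes the mean difference ran from 9.62 points (Hes5) to 17.0 points (Dll1). The exact two-sided permutation test of 3 cultures against 2 gave p = 0.1 for each of the 6, the smallest value that its 10 arrangements allow, so it cannot reach 0.05. After scaling each library to its 0 h median, 0 of 6 genes had both OL cultures above all OPC cultures, beside 15.7% of all transcripts, and the mean difference was above 0 for Id3, Notch1 and Dll1 and below 0 for Hes5, Hes6 and Hey1 (exact permutation p from 0.2 to 1.0).

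Between 4 and 6 h the OPC values of these genes often went up. Over the 6 genes and 3 OPC cultures, 14 of 18 values at 6 h were above those at 4 h (77.8%), beside 12.3%, 32.3% and 21.3% of all transcripts in OPC replicates 1, 2 and 3. Hes5 went from 0.855, 0 and 0.690 FPKM at 4 h to 2.67, 2.41 and 1.45 FPKM at 6 h. Dll1 went from 2.03, 0.940 and 0.889 FPKM to 2.68, 2.05 and 3.44 FPKM, and Id3 from 8.41, 3.92 and 10.0 FPKM to 12.6, 4.38 and 13.2 FPKM. Hes6, the most abundant of the 6 at 4 h (14.7 to 32.5 FPKM), fell in all 3 OPC cultures, to 9.95, 10.5 and 15 FPKM. In OLs, 3 of 10 genes were higher at 6 h than at 4 h in replicate 1 (15.9% of all transcripts) and 0 of 10 in replicate 2 (19.1%). The read depth is unknown, so the counting error of these values is not given.

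The genes listed for OLs alone took unlike courses in the OL cultures. In OL replicate 2, Id1, Id2 and Id4 stood at 102%, 118% and 113% of 0 h after 1 h, at 38.2%, 47.1% and 43.5% after 2 h, and at 6.35%, 7.71% and 7.73% after 6 h. In OL replicate 1, Id2 and Id4 had already fallen to 53.6% and 45.1% after 1 h and stood at 33.8% and 18.9% after 6 h. Id1 in OL replicate 1 was at 5.57, 4.11, 2.21, 7.87 and 2.63 FPKM from 0 to 6 h, with its 4 h value above its 0 h value. Without OL replicate 2 the slope of Id1 was -0.048 log2 per h (limma adjusted p = 0.648), against -0.36 ± 0.10 SE (adjusted p = 0.00501) in both cultures. Hes1, the least abundant of the 10, was at 3.88, 1.09, 2.83, 0 and 0.784 FPKM in replicate 1 and at 6.99, 6.36, 0.608, 1.60 and 0.292 FPKM in replicate 2, and went up between some times in each.

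**Figure D4:**
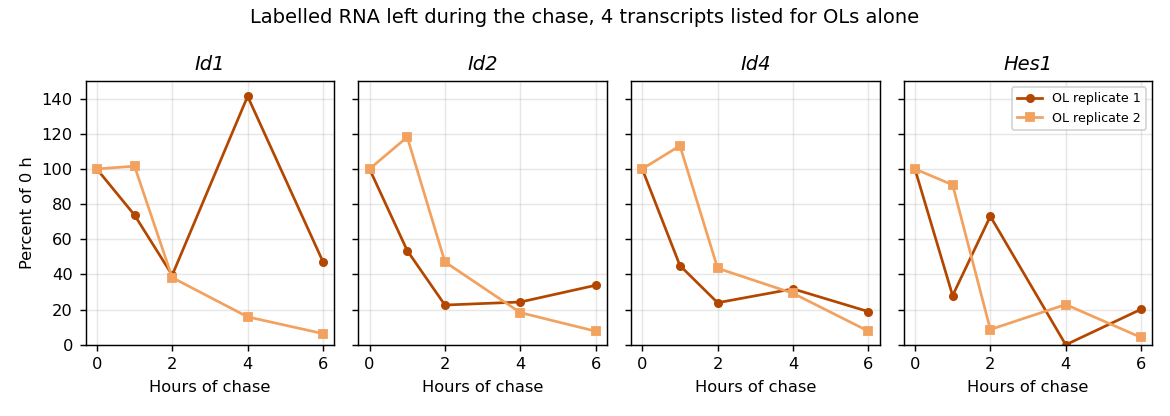
Percent of the 0 h level left (y axis) against hours of chase (x axis) for the 4 genes listed for OLs alone, with 1 line per OL culture. Id1, Id2 and Id4 fell to between 6.35% and 7.73% at 6 h in replicate 2, and the lines of replicate 1 were irregular, with Id1 at 141% at 4 h.

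Half-lives, which the authors fitted to each transcript of each culture with a ceiling of 6 h, were longer in both OL cultures than in all OPC cultures for 6 of 6 genes, a pattern found for 35.9% of all 8112 transcripts compared, and 0 of 6 passed the test. With limma on log2 half-life, 3.54% of those transcripts passed in either direction. The median log2 difference was 1.75 over the 6 genes and 0.37 over all transcripts, and no half-life of any of the 10 genes was at the ceiling. Among all transcripts, the ceiling held from 24.3% to 31.1% of half-lives per OPC culture, while the OL shares were 39.7% (replicate 1) and 36.1% (replicate 2). The ceiling limits the differences such transcripts can show, so these medians are not compared on equal terms. Whether the lengthening is particular to the 6 genes was not tested.

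In OPCs the half-life of Id3 was 0.326, 0.760 and 0.516 h, among the shortest 1% of each culture, and in OLs it was 3.31 and 1.84 h. The value of 0.760 h was shared by 72 transcripts of OPC replicate 2. The geometric mean in OLs was 4.89-fold higher with a wide error (log2 difference 2.29 ± 0.52 SE, limma adjusted p = 0.119). Dll1 had half-lives of 0.568, 0.805 and 0.774 h in OPCs and 3.1 and 2.23 h in OLs and came nearest to the threshold (1.90 ± 0.25 SE, adjusted p = 0.0589). Hey1 had 0.880, 1.59 and 1.10 h in OPCs and 5.44 and 3.72 h in OLs (1.96 ± 0.35 SE, adjusted p = 0.0899).

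Notch1 had half-lives of 1.13, 1.68 and 2.09 h in OPCs and 5.13 and 4.49 h in OLs (1.60 ± 0.32 SE, adjusted p = 0.101 by limma). Hes5 had 0.437, 0.700 and 0.682 h in OPCs and 1.46 and 1.53 h in OLs (1.33 ± 0.27 SE, adjusted p = 0.101), and was the shortest-lived of the 6 in both OL cultures. Without OPC replicate 1 its adjusted p was 0.0245. Hes6 differed least, with 1.59, 2.25 and 3.15 h in OPCs and 3.66 and 3.54 h in OLs (0.68 ± 0.34 SE, adjusted p = 0.374).

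**Figure D5:**
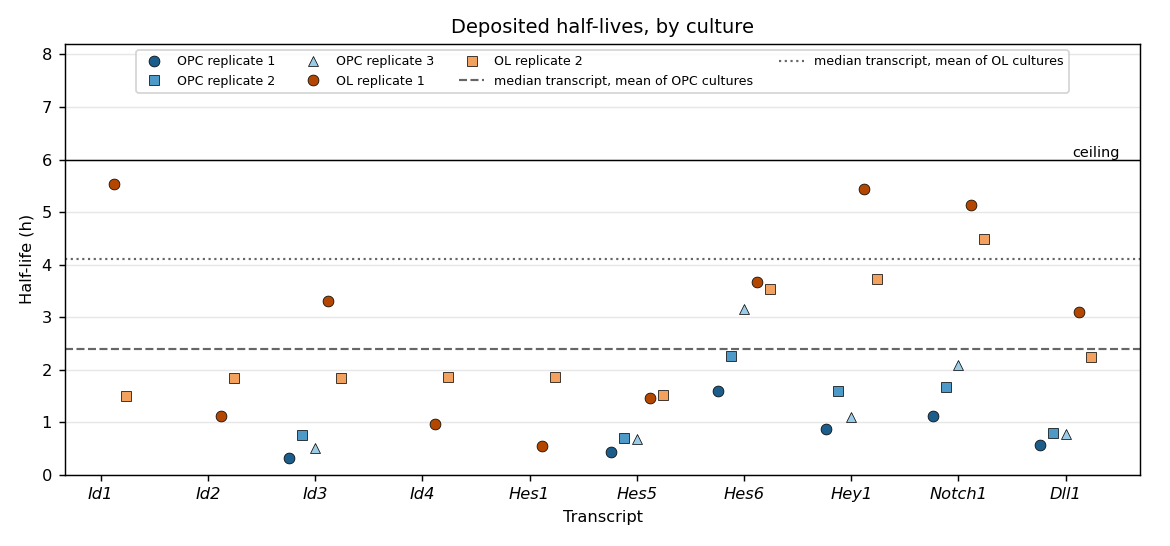
Deposited half-life in hours for each gene, with 1 point per culture (blue, OPC; orange, OL), broken grey lines at the mean of the culture medians and a black line at the ceiling of 6 h. All 3 OPC points lay below both OL points for each of the 6 genes listed for both cell types, and most points lay under the median line of their cell type.

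Within OPCs the order of mean half-life was Hes6, Notch1, Hey1, Dll1, Hes5 and Id3, and among neighbours in it only Hey1 and Dll1 had ranges apart. In OLs, Id1 had half-lives of 5.53 and 1.51 h, Id2 1.11 and 1.84 h, Id4 0.969 and 1.86 h, and Hes1 0.544 and 1.86 h, where 1.86 h was shared by 112 transcripts of OL replicate 2. Relative to the other transcripts of their culture, all 6 genes lay under the median half-life in OPC replicate 1 (2.33 h) and 5 of 6 in replicates 2 and 3 (2.05 and 2.79 h), with Hes6 the exception. Of the 10 genes in OLs, 7 lay under the median in replicate 1 (4.15 h) and 9 in replicate 2 (4.05 h).

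Ranks of half-life within a culture do not change when all its half-lives are multiplied alike, but many values were nearly equal or at the ceiling, and the ranks were not tested under other scalings of single libraries. Hey1 moved up most, from the 7.54th, 15.9th and 7.84th percentile of half-life in OPCs to the 58.0th and 46.1st in OLs. Over the transcripts compared its rank rose by 38.8 ± 6.06 percentile points (SE, limma adjusted p = 0.0786), Notch1 by 29.6 ± 8.40 (adjusted p = 0.183), Dll1 by 24.0 ± 6.89 (0.186), Id3 by 22.6 ± 9.90 (0.312) and Hes5 by 6.56 ± 4.27 (0.378). The difference for Hes6 was -4.24 ± 9.18 (adjusted p = 0.814). None of the 6 passed, beside 0.284% of all transcripts, and 5 of 6 estimates were above 0.

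The slope of log2(FPKM + 1) over the chase has no ceiling, and on it Notch1 decayed more slowly in OLs than in OPCs. Its slope was -0.59, -0.74 and -0.55 per h in OPC replicates 1, 2 and 3 and -0.15 and -0.30 per h in OL replicates 1 and 2. The groups did not overlap, and the share of all transcripts separated in this way in slope was not counted. The difference was 0.40 ± 0.087 per h (SE, limma adjusted p = 0.010), and 1 of 6 genes passed, beside 23.8% of all transcripts in either direction and 23.7% with the higher slope in OLs, whose median difference was 0.14. Left with OL replicate 2 alone the adjusted p was 0.134, and with OL replicate 1 alone it was 0.0623. With each library scaled to its 0 h median the difference was 0.17 (adjusted p = 0.221), and with a pseudocount of 0.1 it was 0.44 (adjusted p = 0.0665).

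The slope differences of the other genes were 0.30 ± 0.11 for Id3 (adjusted p = 0.0690), 0.26 ± 0.098 for Dll1 (0.0668), 0.19 ± 0.077 for Hey1 (0.0922), 0.17 ± 0.079 for Hes6 (0.124) and 0.089 ± 0.092 for Hes5 (0.509), by the same limma fit. Without the 6 h libraries 5 of 6 passed, all but Hes6, beside 15.2% of all transcripts, and without OPC replicate 1 3 of 6 did (Id3, Notch1 and Dll1), beside 27.0%. Without OL replicate 1 or 2, 0 of 6 passed, beside 1.08% and 0% of all transcripts. With the replicate number as a block Id3 passed as well (adjusted p = 0.0107), beside 28.0%. The OPC rise from 4 to 6 h described above enters the main slopes and not those without 6 h.

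The other receptors and ligands of the Notch pathway were listed in part, with 5 of 10 in both cell types. At 0 h, 1 of 5 fell and 0 rose, beside 15.8% and 13.8% of all transcripts. That was Notch3, from 18.4 to 21.4 FPKM in OPCs to 4.24 and 6.08 FPKM in OLs (3.38-fold, limma adjusted p = 0.00129), a call kept with either OL culture left out (0.0204 and 0.00815). Notch2, the receptor nearest in structure to Notch1, was the 1 of 5 that passed for a slower slope in OLs, beside 23.7% of all transcripts (difference 0.33 ± 0.093 per h, adjusted p = 0.0270, and 0.175 and 0.139 without OL replicate 1 or 2), and the half-lives of 0 of 5 passed the test.

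Of 27 tested genes for processing Notch and relaying its signal, 3 rose and 2 fell at 0 h, which is 18.5% of the list beside 29.6% of all transcripts. Without OL replicate 1 or 2 the log2 difference was 1.78 and 1.66 for Psen2 and -2.02 and -2.73 for Lfng, and the calls of the other genes were lost. Lfng, an enzyme that adds sugar to Notch and tunes its choice of ligand, fell from 154 to 195 FPKM in OPCs to 24.9 and 41.7 FPKM in OLs (5.19-fold, limma adjusted p = 0.000684). Psen2, a catalytic subunit of the protease that frees the inner part of Notch, rose 3.30-fold (adjusted p = 0.000853), and Pofut1, which adds fucose to Notch, fell 2.01-fold (adjusted p = 0.0115). For half-life 1 of 27 passed (3.7%, beside 3.54% of all transcripts), Mib2, a ubiquitin ligase that acts on Notch ligands. It had half-lives of 1.46, 1.96 and 1.58 h in OPCs and sat at the ceiling of 6 h in both OL cultures (adjusted p = 0.0325, and 0.126 and 0.12 without OL replicate 1 or 2, 0.208 with the replicate block and 0.0602 after centring on the median of each culture). In slope 6 of 27 were slower in OLs (22.2%, beside 23.7% of all transcripts) and 0 were faster, 1 passed without OL replicate 1 and 0 without OL replicate 2, and the median difference of the list (0.16) was near that of all transcripts (0.14).

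Bhlhe40 and Bhlhe41 were the 2 of 8 further Hes and Hey relatives listed for both. Bhlhe40, a repressor related to the Hes proteins, had half-lives of 1.08, 1.16 and 1.08 h in OPCs and of 2.58 and 2.32 h in OLs, a 2.21-fold difference (limma adjusted p = 0.0203) that also passed on the linear scale and without OL replicate 2, and did not pass under the other 8 alternatives (adjusted p from 0.0511 to 0.581). Its level at 0 h did not pass (1.22-fold, adjusted p = 0.449). Of 5 tested genes of the Groucho (Tle) family, 3 fell at 0 h and 0 rose, beside 15.8% and 13.8% of all transcripts. The list was taken by family, and which of its products act with Hes proteins was not examined. Tle6 fell 7.02-fold (adjusted p = 0.000330), Tle3 1.82-fold (0.0252) and Tle4 1.68-fold (0.0473), and without OL replicate 1 only Tle6 passed, without OL replicate 2 only Tle6 and Tle3, and with the replicate block only Tle6 (Tle3 0.0755 and Tle4 0.116). These 3 genes also had slower slopes in OLs, beside 23.7% of all transcripts, and the calls were lost with either OL culture left out. They did not pass with a pseudocount of 0.1 (limma adjusted p from 0.0674 to 0.259), beside 6.96% of all transcripts. With each library scaled to its 0 h median they did not pass either (0.312 to 0.577), beside 1.6%. Without the 6 h libraries Tle3 and Tle4 passed and Tle6 did not (0.733). Tle6 was at 3.25 and 1.74 FPKM at 0 h in the OL cultures, so its slope there had little room to fall.

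Of 8 tested bHLH partners and targets of Id proteins, 4 fell and 2 rose at 0 h, beside 15.8% and 13.8% of all transcripts. With either OL culture left out, the rises and some of the falls were lost. With the replicate block 2 fell and 2 rose, beside 23.6% of all transcripts in either direction. The E protein Tcf3 fell from 68.3 to 82.4 FPKM in OPCs to 21.6 and 21.2 FPKM in OLs (3.33-fold, limma adjusted p = 0.000948). Olig1, a lineage factor, fell 1.84-fold (limma adjusted p = 0.0190, and 0.0564 and 0.12 without OL replicate 1 or 2, 0.0713 with the replicate block). Half-lives passed the test in 0 of 8. Of 8 tested genes of the BMP and Smad input, 1 fell at 0 h, the ligand Bmp7 (3.15-fold, adjusted p = 0.00472), and 0 of 8 passed in half-life (3.54% of all transcripts) or in slope (23.8%), where 3 passed with an interaction over 25 libraries (32.5% of all transcripts) and 2 without OPC replicate 1 (27.0%). The lists were chosen with earlier results of these data known and their counts are descriptions.

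The profile of Id3 over the 25 libraries was most like those of Klf6 (Pearson's r = 0.911), Myc (0.909), Zfp574 (0.906), Cramp1l (0.902) and Atxn7 (0.901) among 8177 transcripts. The mean profile of Hes5, Hes6 and Hey1 was most like those of Irgq (0.977), Mlycd (0.966), Map3k11 (0.966), Fbxo28 (0.966) and Nkx2-2 (0.965). All libraries share the chase, so that transcripts that fall fast resemble each other, and 9.69% of all transcripts had r over 0.9 with the second profile but 0.0612% with that of Id3. Among the 6 genes, Hes5 and Dll1 were most alike (r = 0.918) and Hes6 and Hey1 least (r = 0.230).

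The study examined the codons UUU of phenylalanine and AAA of lysine, and only Notch1 and Dll1 of the 10 genes held many codons for these amino acids. Notch1 had 63 and 66 such codons, of which 23.8% were UUU and 19.7% AAA, and Dll1 had 26 and 31, of which 26.9% and 16.1% were. The medians over all transcripts were 44.4% and 37.5%. The remaining 8 genes had at most 9 phenylalanine and 15 lysine codons each, too few for a share to be read.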

How the data were processed

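Labelled RNA was measured in 25 libraries of 5 cultures, and titles gave their groups. After adapter removal (fastx_clipper), the authors mapped the reads with HISAT2 2.1.0 on GRCm38 and tabulated FPKM with StringTie 1.3.5 and ballgown over canonical coding transcripts of GENCODE vM9 (versions from the submitters' processing notes). The authors tied the deposited FPKM to labelled spike-in RNA, with a common factor for a library's transcripts. Their methods describe this for every time, but the 0 h columns were read from their decimals as not rescaled. Transcripts under 1 FPKM at 0 h, or at 0 FPKM at 1 and 2 h, had been left out. The authors fitted half-lives by least absolute deviations as a single exponential decay, and a refit fell within 0.01 h of 98.5% to 99.9% of them. Depth is unknown, so no counting error is given.

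Whole tables were fitted with limma 3.58.1 in R 4.3.3 on log2(FPKM + 1), log2 half-life, half-life percentile and slopes per culture, with Benjamini-Hochberg adjustment over all transcripts and a threshold of 0.05. The fits and the half-life refit were tested on simulated data. The members, lists and named genes (all members, and per list and comparison at most 3 with the smallest adjusted p) were chosen with earlier results of these data known. The result of 1 listed gene is not reported here. Alternatives were a pseudocount of 0.1, a mean of at least 5 FPKM, other scalings, times and refits, the replicate number as a block, and each culture left out. Sequences came from GENCODE M21 on GRCm38, where all 10104 transcripts were matched by identifier.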

Additional observations from a re-analysis of the deposited data

Results flagged for a closer look

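Notch1 met the test of a difference between cell types in its decay, with a chase slope 0.40 log2 per h higher in OLs than in OPCs (limma adjusted p = 0.010). The slope was -0.59, -0.74 and -0.55 per h in the OPC cultures and -0.15 and -0.30 per h in the OL cultures, so both OL slopes lay above all OPC slopes. A higher slope in OLs was called for 23.7% of all transcripts. Over the 11 alternatives tried the difference ran from 0.17 to 0.73 and the adjusted p from 0.000690 to 0.221. A group of 2 or 3 cultures is too small to test a single culture for standing apart.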

How the results depend on the processing

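With each library scaled to its 0 h median, members called fell to 0 of 6 in OPCs, 2 of 10 in OLs and 0 of 6 in slope difference, and the mean percent left at 6 h was higher in OLs for 3 of 6, with both OL cultures above all OPC cultures for 0 of 6. The slope turned to 0.057 for Hes6 in OPCs and 0.030 for Notch1 in OLs, the slope difference to -0.060 for Hes5, -0.088 for Hes6 and -0.010 for Hey1, and the difference at 6 h to -6.76 points for Hes5, -36.7 for Hes6 and -4.35 for Hey1, while the median slope difference of all transcripts went from 0.14 to -0.029. For Hes6 the half-life difference was -0.22 after centring and -0.082 on the mean decay curve, and the rank difference 2.35 without 6 h. In slope difference 2 members passed with an interaction over 25 libraries (Notch1 and Hes6), 0 with a pseudocount of 0.1 and 5 without 6 h, and 2 passed in half-life on the linear scale in h (Hes5 and Notch1).

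With a culture left out, 0 to 2 members passed at 0 h (0 without OL replicate 1), 0 to 1 in half-life, 0 to 0 in rank, 0 to 3 in slope difference, 6 to 10 in the OL slope and 6 to 6 in the OPC slope. Without OL replicate 1 the level difference of Id3 was 0.13 and the slope difference of Hes5 -0.052, against -2.72 and 0.23 without OL replicate 2. The cause was not tested.

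Calls over all transcripts ran from 896 to 2605 at 0 h with a culture left out (main 2421). For half-life (main 287, 275 longer and 12 shorter) they were 600 on the linear scale, 285 on the mean decay curve (91 longer and 194 shorter), 30 refitted without 6 h, 1 centred and 167 to 236 with a culture left out. For rank (main 23) all alternatives gave 0, with 1039 to 1560 transcripts at an unadjusted p under 0.05 by limma. For slope difference (main 1944) they were 131 scaled to the median, 569 with a pseudocount of 0.1, 1240 without 6 h, and 0 to 2209 with a culture left out (0 without OL replicate 2, where 2082 had an unadjusted p under 0.05, 88 without OL replicate 1).

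OPC and OL cultures share the numbers 1 and 2, and the OL cultures correspond to 2 of the OPC cultures, but no source used here says that the numbers mark which. Deviations of same-numbered cultures from their group means had correlations of 0.0589 and 0.0102 at 0 h, -0.00162 and -0.105 in half-life and -0.0258 and -0.101 in slope, so whether the block pairs the right cultures is not known. With the replicate block, where OPC replicate 3 has no partner, 3 members passed at 0 h and 2 in slope difference (Id3 joined in each, limma adjusted p = 0.0461 and 0.0107), 0 in half-life and 0 in rank, with 1932, 2286, 0 and 0 calls over all transcripts (1554 half-lives at an unadjusted p under 0.05). Without the block of replicates within a cell type, 8 of 10 falls in OLs and 6 of 6 in OPCs passed, beside 65.5% and 85.7% of all transcripts in either direction.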

Other observations

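Some half-lives were shared by many transcripts of a culture. Where the fitted curve passes between the measured points and not through any of them, a fit by least absolute deviations has a best value that depends only on which times lie above and which below the curve, and not on how far. Among the deposited values, 2174 of the 8491 half-lives of OPC replicate 2 (25.6%) lay within 0.001 h of 1.96 h, which is such a value, beside 7.45% in OPC replicate 3, 2.18% in OPC replicate 1, 0.474% in OL replicate 1 and 1.38% in OL replicate 2. Counting all such values, the shares were 5.87%, 27.2% and 8.74% in the OPC cultures, in order of their number, and 0.928% and 2.62% in the OL cultures. Of the Id, Hes and Notch genes, Id3 in OPC replicate 2 (0.760 h, shared by 72 transcripts) and Id4 and Hes1 in OL replicate 2 (1.86 h, shared by 112) had such a half-life. Their equal half-lives in that culture stood beside unlike courses, with 43.5%, 29.3% and 7.73% of the 0 h level left at 2, 4 and 6 h for Id4 and 8.69%, 22.9% and 4.17% for Hes1.

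The library medians also differed between cultures at 1 h. The median FPKM at 1 h was 68.7%, 93.2% and 75.4% of 0 h in the 3 OPC cultures and 62.0% and 95.3% in the OL cultures, each in order of number. At that time the 10 genes were 1.56 to 23.5 times as high in OL replicate 2 as in OL replicate 1, at the 49.1st to 100.0th percentile of all OL transcripts.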
